A study of Homo sapiens with 12 samples.

Results

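The genes described here are 9 interferon-stimulated genes of A549/DDP cells: IFITM1, IFITM2, IFITM3, IRF7, IRF9, IRF1, STAT2, ISG15 and IFI6. They were named with earlier results of these data known. Their rows were then taken by the gene identifiers that carry these symbols, and all 9 were found among 60902 genes. All 9 also passed the filter on low values (a mean of at least 1 TPM over 12 libraries), in which 13854 genes were tested. A549/DDP descends from A549, an established line from a human lung adenocarcinoma, and resists cisplatin (DDP), a platinum compound that forms crosslinks in DNA. It is 1 cell line. RNA was sequenced from 4 groups of 3 libraries. CON cells had normal medium (glucose at 2 g/L, FBS at 10%) throughout each 24 h cycle. DDP cells had the drug in this medium. TRF cells, a culture model of time-restricted feeding, had normal medium for 6 h and medium without serum and glucose for 18 h of each cycle. TRF_DDP cells had both, and the study asked how the cycles and the drug act together. The line is kept in DDP, and no source used here says whether the drug was withdrawn before the experiment, so earlier exposure is shared by all groups or unknown. The labels give no dose or time of DDP. The study gives both beside the qPCR of these cells, without saying whether they hold for the sequenced libraries, so none is printed here.

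Interferons are secreted proteins that warn neighbouring cells of infection. Type I and type III interferons bind receptors that carry the Janus kinases JAK1 and TYK2, the kinases activate STAT2 among other proteins, and STAT2 and IRF9 act in a complex that binds interferon-stimulated response elements (ISRE) in promoters. Interferon gamma acts through JAK1 and JAK2 on gamma-activated sites (GAS) in promoters and induces IRF1. IRF7 is itself induced and drives further interferon production. IFITM1, IFITM2 and IFITM3 are small membrane proteins that block the entry of enveloped viruses, ISG15 is a ubiquitin-like protein that is secreted or attached to other proteins, and IFI6 is an inducible protein with anti-apoptotic activity. In tumour cells part of this programme can run without infection.

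Expression is given in the authors' TPM, which scales each gene by transcript length and to all transcripts of a library. The depth behind a value is therefore unknown, and no interval for counting error is given. In bulk RNA, fewer cells that use a gene and less RNA per cell cannot be told apart. From 13029 to 14028 genes per library reached 1 TPM. Mitochondrial genes took 10.3% to 10.8% of the TPM in CON libraries, 9.88% to 9.99% in DDP and 8.28% to 8.55% in TRF_DDP. In TRF libraries they took 8.84%, 8.70% and, in replicate 3, 6.37%. Of 8 epithelial and lung adenocarcinoma markers, only 3, the keratins KRT7, KRT8 and KRT18, averaged at least 1 TPM over the 12 libraries. The 8 summed to 1851 to 1926 TPM in CON and 2716 to 2881 TPM in TRF, nearly all of it from these keratins. The epithelial markers EPCAM, KRT19 and CDH1 stayed at or under 0.48 TPM in every library, and the lung markers NKX2-1 and NAPSA at or under 1.66 TPM. Of 12 leukocyte markers, CD2, CD3E and MS4A1 were at 0 in all libraries and PTPRC, the pan-leukocyte marker, reached 0.01 TPM. Only ITGAM and IL3RA averaged at least 1 TPM, and the summed leukocyte markers were 5.65 to 6.62 TPM for CON, 6.28 to 8.0 for DDP, 1.62 to 2.45 for TRF and 4.94 to 7.12 for TRF_DDP. Of 8 fibroblast markers only COL1A1 averaged at least 1 TPM (summed markers 6.09 to 21.6 TPM), and of 6 endothelial markers none did. The part of these shifts in the results was not tested.

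Promoter windows are shown because ISRE and GAS motifs are DNA elements through which interferon-stimulated genes can answer interferon. A RefSeq table (GRCh38.p14) held promoters of 7 of the 9 genes, each with 250 bases before and 50 after the start used there. IFITM2 and IRF7 had no entry. That start can differ from the gene start in the GENCODE v29 coordinates given below. The IFITM1, IFITM3 and ISG15 windows lie inside those gene spans. The ISRE was searched as GAAA followed, after any 2 bases, by GAAA, and the GAS as TTCNNNGAA, on both strands. Of 35116 promoters in the table, 1255 (3.57%) held the first motif and 2689 (7.66%) the second. IFITM1, IFITM3, ISG15 and IFI6 held ISRE matches, and their windows follow, 5′ to 3′ on the gene's strand, with each match in capitals. The IFITM1 window is chr11:313960-314054 on the plus strand, IFITM3 is chr11:320846-320940 on the minus strand, ISG15 is chr1:1013379-1013424 on the plus strand and IFI6 is chr1:27672251-27672353 on the minus strand.
IFITM1: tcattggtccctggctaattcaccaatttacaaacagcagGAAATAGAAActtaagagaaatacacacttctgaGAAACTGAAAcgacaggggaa
IFITM3: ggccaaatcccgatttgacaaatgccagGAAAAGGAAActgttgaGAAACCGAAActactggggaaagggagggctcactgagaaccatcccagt
ISG15: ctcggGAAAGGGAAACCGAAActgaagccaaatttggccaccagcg
IFI6: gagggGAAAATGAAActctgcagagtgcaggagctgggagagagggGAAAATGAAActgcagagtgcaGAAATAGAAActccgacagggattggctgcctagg
In IFITM1 the matches began 40 and 6 bases before the start, and a GAS match that began 12 bases before the start overlapped the nearer one. In IFITM3 they began 52 and 35 bases before it. The ISG15 matches, at 113 and 107 bases, overlap and are printed as 1 run of capitals. IFI6 held 3, at 156, 115 and 93 bases. Of the transcription factors, IRF9 held a GAS match 63 bases and IRF1 one 124 bases before the start, and STAT2 held neither motif. A match is a description of letters and not of binding.

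The 9 genes did not move as a block. IFITM1, IFITM2 and IFITM3 fell by 2.70-fold to 4.94-fold under TRF medium, with and without DDP, and IRF7 rose by 1.94-fold and 2.36-fold. ISG15 rose with DDP in both media, by about the fold threshold (1.54-fold and 1.53-fold). With TRF medium it rose by nearly as much, 1.42-fold without DDP and 1.41-fold with it. The difference that DDP made to IFI6 changed with the medium. IRF9, IRF1 and STAT2 passed no comparison of groups by both thresholds used, an adjusted p under 0.05 in limma's moderated test on log2(TPM + 1) and a fold over 1.5. Folds and log2 changes below are on that log2(TPM + 1) scale, which understates changes of low genes. The study calls its replicates biological, and neither it nor the labels say what separates the libraries of a group. The p-values therefore weigh differences against a spread between libraries whose independence is not known.

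**Figure D1:**
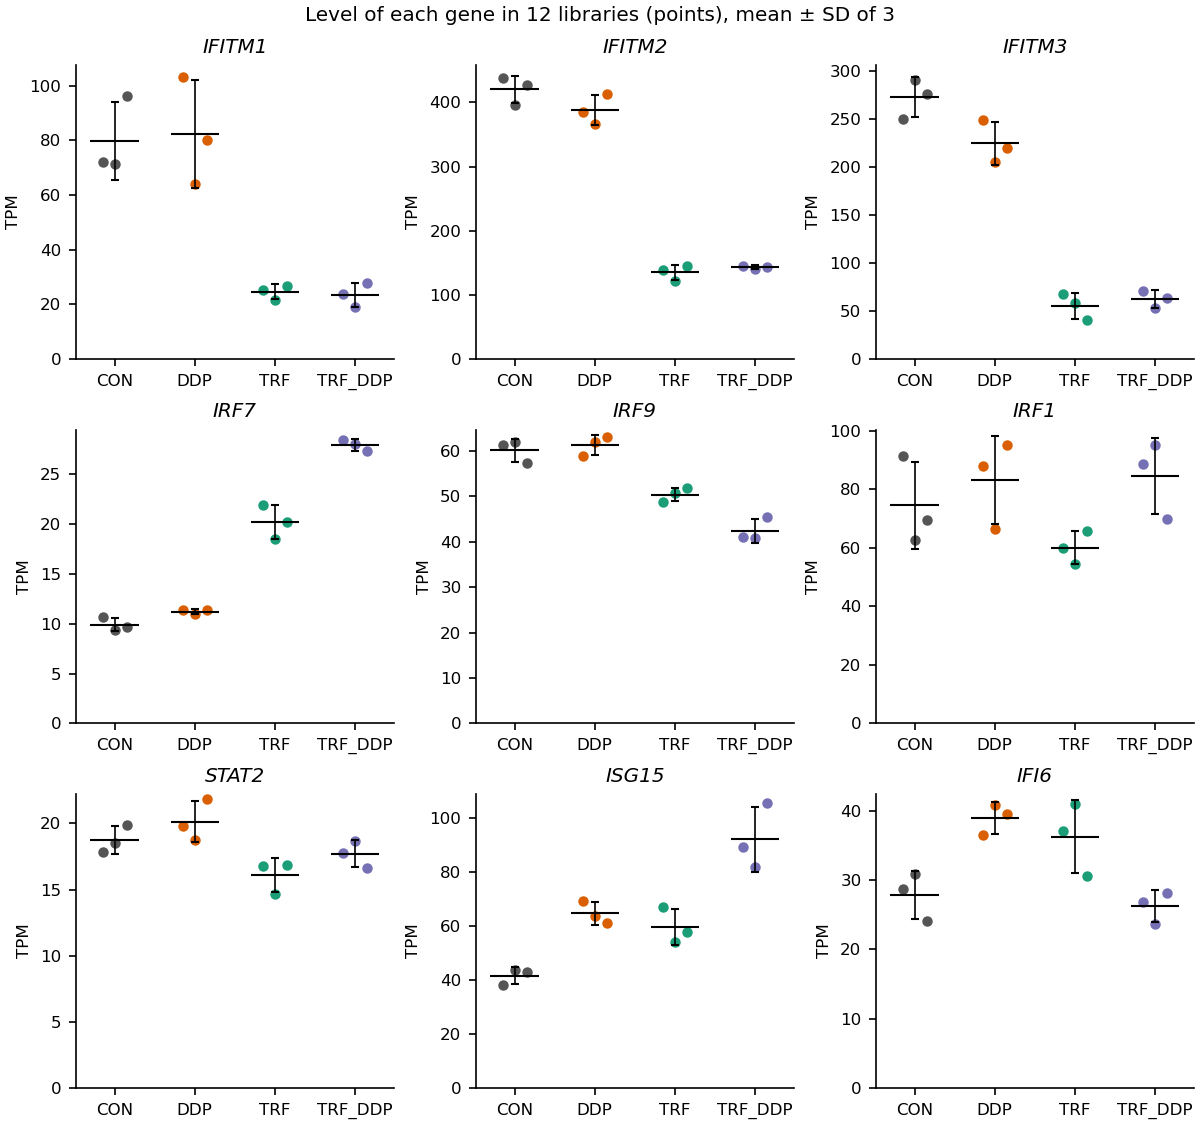
TPM (vertical axis, linear from 0) of each of the 9 genes for CON, DDP, TRF and TRF_DDP, with 1 point per library, a bar at the mean and an error bar of 1 SD (n = 3). The IFITM points of TRF and TRF_DDP lie under all points of CON and DDP, while those of IRF7 lie above them, and ISG15 has its highest points in TRF_DDP.

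IFITM2 was the most abundant of the 9 genes in all 4 groups. Its level was 438, 396 and 427 TPM in the CON libraries, 385, 367 and 414 for DDP, 138, 121 and 145 for TRF and 145, 139.75 and 144 for TRF_DDP. Libraries of normal medium and of TRF medium did not overlap, whether or not DDP was present. IFITM2 fell by 1.64 on the log2 scale in TRF against CON (SE 0.0659, limma adjusted p = 1.51e-09), a 3.11-fold fall, and by 1.43 in TRF_DDP against DDP (adjusted p = 2.28e-09). With DDP it differed by -0.11 in normal medium (95% interval -0.26 to 0.03) and by 0.09 in TRF medium (-0.06 to 0.23), and neither difference passed the test.

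IFITM3, the member best known for restricting influenza virus in endosomes, had 249.95, 291 and 276 TPM for CON, 249, 205 and 219.9 for DDP, 67.2, 57.8 and 41 for TRF and 70.9, 52.7 and 63.2 for TRF_DDP. The TRF-medium libraries lay under every library of normal medium. It fell by 2.30 in TRF against CON (SE 0.17, limma adjusted p = 1.502e-06), a 4.94-fold fall and the largest of the 9 genes in that comparison, and by 1.84 in TRF_DDP against DDP (adjusted p = 5.43e-06). All 3 DDP libraries lay under all 3 CON libraries, but the difference of -0.28 did not pass the test (adjusted p = 0.331).

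IFITM1, which acts mostly at the cell surface, had 72.0, 71.3 and 96.1 TPM for CON, 103, 63.9 and 80.1 for DDP, 25.3, 21.6 and 26.9 for TRF and 23.9, 19.0 and 27.8 for TRF_DDP. CON and DDP libraries overlapped, as did TRF and TRF_DDP libraries, and the 2 media did not. IFITM1 fell by 1.65 in TRF against CON (SE 0.193, limma adjusted p = 3.73e-05) and by 1.75 in TRF_DDP against DDP (adjusted p = 1.76e-05).

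Summed over the 3 IFITM genes, the level was 773 ± 23.5 TPM for CON (SD over 3 libraries, as for all ± values), 695 ± 53.3 for DDP, 215 ± 14.97 for TRF and 229 ± 15.2 for TRF_DDP. The mean makeup of the sum also differed between media. IFITM3 was 35.3% ± 2.81 of it for CON, 32.3% ± 1.499 for DDP, 25.7% ± 5.64 for TRF and 27.1% ± 2.33 for TRF_DDP. IFITM2 took 54.4% ± 2.83, 56.0% ± 3.27, 62.8% ± 4.66 and 62.6% ± 3.02 in the same order, and IFITM1 between 10.3% and 11.8% in each. TRF libraries held 29.2%, 28.8% and, in replicate 3, 19.2% IFITM3, and CON libraries 32.9% to 38.4%. No test was run on these shares.

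The 3 genes stand side by side on chromosome 11, within 19907 bases of the GRCh38 assembly (GENCODE v29). IFITM1 is at chr11:313506-315272 on the plus strand, IFITM2 at chr11:307631-315272 on the plus strand with an annotated span that covers all of IFITM1, and IFITM3 at chr11:319669-327537 on the minus strand. The longest open reading frames of IFITM2 and IFITM3 were identical at 93.3% of aligned bases, IFITM1 and IFITM2 at 68.0% and IFITM1 and IFITM3 at 69.1%. Of 50-base windows of the open reading frame, 55.3% of those of IFITM1, 14.3% of IFITM2 and 27.8% of IFITM3 also occurred in a transcript of another of these genes. A shared window can come from overlapping annotation or from alike sequence, and these were not told apart. The split of reads among the 3 levels is therefore uncertain and the sum is less so. The antisense gene AC136475.2 overlaps IFITM2 by 1003 bases and was listed at 246 ± 12.5 TPM for CON, 240.1 ± 8.72 for DDP, 104 ± 9.13 for TRF and 113 ± 16.1 for TRF_DDP. Without knowledge of strand, reads of the pair cannot be told apart.

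Of 9 other genes of the IFITM family or beside the cluster, 7 were tested. B4GALNT4, a glycosyltransferase gene next to the cluster, fell by 1.09 in TRF against CON (limma adjusted p = 6.49e-05) and by 1.43 in TRF_DDP against DDP (adjusted p = 4.73e-06). SIGIRR, an inhibitor of interleukin-1 and Toll-like receptor signalling, fell by 0.71 in TRF_DDP against DDP (adjusted p = 2.25e-08), a call that was lost after TMM-style scaling (-0.57). The other 5 passed in no comparison of 2 groups. IFITM10, a family member on the same chromosome, was at 0.91 to 1.01 TPM on average in each group.

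ISG15 rose with DDP in both media. It had 38.0, 43.8 and 42.9 TPM for CON, 69.2, 63.8 and 61.0 for DDP, 66.8, 54.0 and 57.8 for TRF and 89.1, 81.8 and 105 for TRF_DDP. CON held the 3 lowest libraries and TRF_DDP the 3 highest, with DDP and TRF overlapping between them. The change with DDP was 0.63 in normal medium (SE 0.0992, limma adjusted p = 0.00179) and 0.62 in TRF medium (adjusted p = 2.92e-04), with an interaction of -0.01 (95% interval -0.31 to 0.30). These are folds of 1.54 and 1.53 against the threshold of 1.5, and both calls were lost after quantile normalization (0.57 and 0.53) and TMM-style scaling (0.55 and 0.51). In normal medium the call was also lost without CON replicate 1 (0.56) or DDP replicate 1 (0.58), and in TRF medium without TRF replicate 2 (0.55) or TRF_DDP replicate 3 (0.52). The adjusted p stayed at or under 0.0129 in every alternative for the first comparison and 0.00315 for the second. TRF medium gave 0.51 without DDP (adjusted p = 8.07e-04) and 0.50 with it (adjusted p = 7.56e-04), under the fold of 1.5 but past it after TMM-style scaling (0.68 and 0.64), and TRF_DDP against CON gave 1.12, a 2.18-fold rise (adjusted p = 6.63e-07). ISG15 is at chr1:1001138-1014540 on the plus strand, and 2 genes annotated on the other strand within it were at 0 in all libraries.

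IFI6 had 28.8, 30.9 and 24.1 TPM for CON, 36.5, 40.9 and 39.5 for DDP, 37.1, 41.02 and 30.6 for TRF and 26.8, 23.7 and 28.1 for TRF_DDP. Either treatment alone gave levels above CON on average, and the libraries of both together overlapped those of CON. The change with DDP was 0.47 in normal medium (SE 0.111, limma adjusted p = 0.0174) and -0.45 in TRF medium (adjusted p = 0.00573), each under a fold of 1.5. Their difference, the interaction, was -0.92 (SE 0.158, adjusted p = 0.00104) and passed in all 20 alternatives. TRF medium gave 0.36 without DDP (adjusted p = 0.0137) and -0.56 with it (adjusted p = 7.81e-04). The second passed the fold without DDP replicate 1 (-0.60) or TRF_DDP replicate 3 (-0.61). TRF_DDP against CON differed by -0.08 (95% interval -0.33 to 0.16). IFI6 is at chr1:27666061-27672218 on the minus strand.

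**Figure D2:**
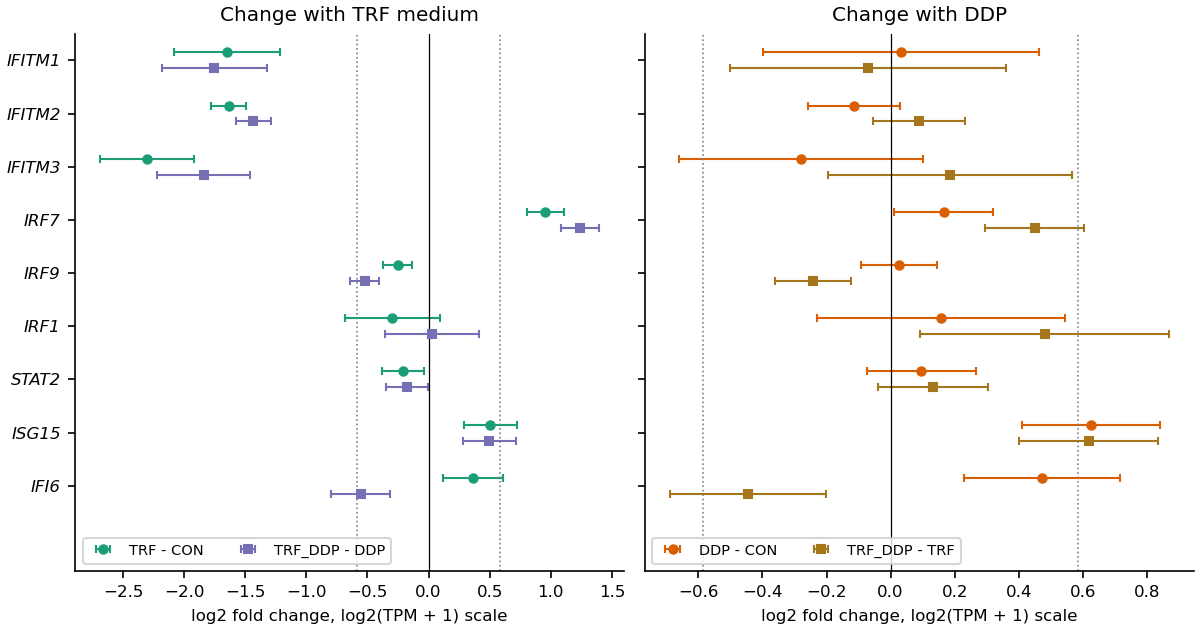
Log2 fold change of each of the 9 genes with its 95% interval (horizontal axis, log2(TPM + 1) scale) for TRF medium in the absence and presence of DDP (left) and for DDP in normal and TRF medium (right). Dotted lines mark a fold of 1.5. The IFITM genes lie left of the line with TRF medium and across 0 with DDP, and IFI6 has intervals on opposite sides of 0 in each panel.

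Among the transcription factors, IRF7 rose with TRF medium. Its level was 10.7, 9.34 and 9.71 TPM for CON, 11.4, 10.9 and 11.3 for DDP, 21.9, 18.5 and 20.2 for TRF and 28.4, 28.0 and 27.2 for TRF_DDP. The 4 groups did not overlap, in the order CON, DDP, TRF and TRF_DDP. IRF7 rose by 0.96 in TRF against CON (SE 0.0707, limma adjusted p = 2.40e-07), a 1.94-fold rise, and by 1.24 in TRF_DDP against DDP (adjusted p = 1.41e-08), a 2.36-fold rise. With DDP it differed by 0.17 in normal medium (adjusted p = 0.154) and 0.45 in TRF medium (adjusted p = 2.47e-04, fold 1.37). The interaction of 0.28 had an adjusted p of 0.0497 and passed in 6 of 20 alternatives. IRF7 is also on chromosome 11, at chr11:612553-615999 on the minus strand.

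IRF9, the DNA-binding partner of STAT2, had 61.2, 61.9 and 57.2 TPM for CON, 58.8, 61.9 and 63.0 for DDP, 48.7, 50.6 and 51.7 for TRF and 40.9, 40.8 and 45.5 for TRF_DDP. TRF_DDP held the 3 lowest libraries and TRF the next 3. The differences were small and tightly measured, at -0.25 in TRF against CON (SE 0.0543, limma adjusted p = 0.00162) and -0.52 in TRF_DDP against DDP (adjusted p = 3.24e-06, fold 1.43). After TMM-style scaling the first was -0.08 (adjusted p = 0.315) and the second -0.38. The interaction of -0.27 passed (adjusted p = 0.0196), in 18 of 20 alternatives, and not without TRF_DDP replicate 2 (adjusted p = 0.0504). IRF9 is at chr14:24161053-24166565, and the overlapping gene AL136295.5 on the same strand was at 4.25 to 6.79 TPM on average.

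STAT2 was at 17.9, 18.5 and 19.9 TPM for CON, 19.8, 18.7 and 21.9 for DDP, 16.8, 14.6 and 16.9 for TRF and 17.8, 18.7 and 16.6 for TRF_DDP. The largest of its differences was -0.21 (TRF against CON, limma adjusted p = 0.035), followed by -0.17 (TRF_DDP against DDP, adjusted p = 0.0683), 0.10 (DDP against CON) and 0.13 (TRF_DDP against TRF), none over a fold of 1.5. It lies at chr12:56341597-56360155 on the minus strand.

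IRF1, the factor induced by interferon gamma, had a wide spread within groups (SE of a difference 0.174). Its level was 91.2, 62.8 and 69.7 TPM for CON, 88.1, 66.4 and 95.1 for DDP, 59.9, 54.4 and 65.6 for TRF and 88.5, 95.2 and 70.0 for TRF_DDP. Of the comparisons made, only TRF_DDP and TRF did not overlap for it, with a difference of 0.48 (95% interval 0.09 to 0.87, limma adjusted p = 0.0432, fold 1.40) that did not pass the fold. Without TRF_DDP replicate 3 it passed (0.61), and without TRF_DDP replicate 2 it was 0.39 (adjusted p = 0.134). The other differences were 0.16 (DDP against CON), -0.30 (TRF against CON) and 0.03 (TRF_DDP against DDP), all within the spread. IRF1 lies at chr5:132481609-132490798 on the minus strand, and the opposite-strand genes AC116366.3 and C5orf56 that overlap it averaged 3.93 and 2.33 TPM over the 12 libraries.

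Against the background of all genes, TRF against CON called 4 of the 9 genes (3 lower, 1 higher) where 25.6% of all genes tested were called, 17.1% lower and 8.41% higher. TRF_DDP against DDP called the same 4, with 33.2% of all genes called. TRF_DDP against CON called 5, these 4 and ISG15, with 35.1% called, 15.6% higher and 19.5% lower. DDP against CON called 1 of 9 with 2.01% called, and TRF_DDP against TRF 1 of 9 with 16.3% called, ISG15 in each. The interaction called 3 of 9 (IFI6, IRF9 and IRF7), with 29.8% of all genes called. The comparisons share libraries (CON in DDP and TRF against CON, TRF_DDP in others), so their counts are not independent. Nor are the 3 lower calls, IFITM1 to IFITM3, independent of each other, as the split of reads among these genes is uncertain. The 9 genes were chosen with earlier results of these data known, so setting their shares beside those of all genes is a description only. The median of all genes was -0.11 in TRF against CON, and moved to 0.00 after quantile normalization and 0.04 after TMM-style scaling. The falls of IFITM1 to IFITM3 and the rise of IRF7 exceeded these shifts and were called in all 21 alternatives of the 3 comparisons that hold them.

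Groups without overlap were common in these data. Groups did not overlap for 4 of the 9 genes in DDP against CON (34.6% of all genes tested), 7 in TRF against CON (64.4%), 8 in TRF_DDP against DDP (70.2%), 5 in TRF_DDP against TRF (54.5%) and 6 in TRF_DDP against CON (72.6%). The median log2 change of the 9 was 0.10 in DDP against CON (0.06 over all genes), -0.25 in TRF against CON (-0.11), -0.52 in TRF_DDP against DDP (-0.10) and 0.13 in TRF_DDP against TRF (0.06). Without the fold threshold, members passed in 2, 8, 7 and 5 cases of 9 in these 4 comparisons. Of all 13854 genes tested, 1690, 8412, 9056 and 6639 passed in the same order.

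The order of mean levels differed between groups. In CON it was IFITM2, IFITM3, IFITM1, IRF1, IRF9, ISG15, IFI6, STAT2 and IRF7, and of neighbours in this order only IFITM1 and IRF1 overlapped. In TRF, IFITM2 was followed by IRF1, ISG15, IFITM3 and IRF9, each overlapping the next, and then by IFI6, IFITM1, IRF7 and STAT2, where IFITM1 and IRF7 overlapped. In TRF_DDP, ISG15 was next to IFITM2 (92.1 ± 12.1 against 143 ± 2.85 TPM), IRF1 overlapped both ISG15 and IFITM3, and IFITM1, IFI6 and IRF7 lay between 19.0 and 28.4 TPM. The 9 genes together held 1005 ± 18.9 TPM for CON, 974.9 ± 67.0 for DDP, 457 ± 24.0 for TRF and 519.7 ± 17.4 for TRF_DDP.

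IFITM2 had both the highest mean (272 TPM over 12 libraries) and the largest moderated F over the 4 groups. Outside the 9 genes, those most like it by Pearson r of log2(TPM + 1) over the 12 libraries, which fall into 4 groups, were BCAM (0.996), TLE2 (0.995), DDX39B (0.995), GRAMD1A (0.995) and SULT2B1 (0.993). BCAM, a laminin-binding adhesion molecule, averaged 64.0 TPM for CON, 57.0 for DDP, 7.09 for TRF and 7.45 for TRF_DDP, and SULT2B1, a sulfotransferase, 23.4, 19.9, 1.63 and 1.26. Within the 9, r was 0.97 between IFITM1 and IFITM2, 0.96 between IFITM1 and IFITM3 and 0.97 between IFITM2 and IFITM3, and -0.92 to -0.93 between IRF7 and each of them. With the group means removed, the IFITM pairs had r of 0.47, 0.28 and -0.27, so the high values describe the groups and not the libraries within them.

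Upstream of these genes, interferon mRNA was hardly seen. Of 22 interferon genes, 17 were at 0 in all 12 libraries. IFNE, an epithelial type I interferon, averaged 0.62 ± 0.0458 TPM for CON, 0.597 ± 0.231 for DDP, 0.203 ± 0.135 for TRF and 0.2 ± 0.106 for TRF_DDP. The other 4 reached at most 0.14 TPM in any library, and none of the 22 passed the filter for the test. As TPM gives no depth, a level of 0 sets no limit on the mRNA.

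Receptors, Janus kinases and STATs that passed the test under TRF medium were all lower. Of 11 such genes 10 were tested, and 3 fell in TRF against CON and 5 in TRF_DDP against DDP, with 0 higher in either. Of all genes 17.1% and 21.4% were lower and 8.41% and 11.8% higher in these comparisons. The median change of the 10 was -0.40 and -0.52 (-0.11 and -0.10 over all genes). STAT3, used mainly by interleukin-6 type cytokines, fell by 0.83 and 0.81 in these comparisons (limma adjusted p = 8.06e-09 and 5.45e-09), and JAK2 by 0.97 and 0.82, the last call being lost after quantile normalization (-0.58). JAK1 fell by 1.09 in TRF_DDP against DDP (adjusted p = 1.95e-09) and differed by -0.57 in TRF against CON, just under the fold. IFNAR2, the signalling chain of the type I receptor, averaged 13.4 ± 1.09, 12.3 ± 1.45, 10.9 ± 0.626 and 6.15 ± 1.32 TPM in the order CON, DDP, TRF and TRF_DDP. It fell by 0.91 in TRF_DDP against DDP (adjusted p = 3.50e-05) and by 0.75 against TRF (adjusted p = 3.44e-04). IFNAR1 and TYK2 passed in no comparison of 2 groups (TYK2 -0.54 in TRF against CON, IFNAR1 -0.06). In DDP against CON 0 of the 10 were called. By limma 3 had an adjusted p under 0.05 (IL10RB 0.39, IFNAR1 0.29 and JAK1 0.20), all with folds under 1.5, and 4 had an unadjusted p under 0.05, all higher. Over all 13854 genes tested, 1690 had an adjusted p under 0.05 there, and the calls were 257 higher and 22 lower. The share of all genes with an unadjusted p under 0.05 is not given here.

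Of 6 tested members of the wider IRF family, IRF2BP2, a corepressor of IRF2, fell in TRF against CON (by 0.71) and IRF2 and IRF2BP2 fell in TRF_DDP against DDP (by 0.68 each, limma adjusted p = 1.30e-06 and 7.29e-07). All 3 calls were lost after TMM-style scaling (IRF2BP2 -0.54 in both comparisons, IRF2 -0.55). IRF5, a factor related to IRF7, rose by 1.10 in TRF_DDP against TRF (5.59 ± 0.523 to 13.2 ± 2.13 TPM, adjusted p = 3.91e-05), with an interaction of 0.73 (adjusted p = 0.0145). IRF2BPL differed by -0.58 and -0.57 under TRF medium, under the fold.

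**Figure D3:**
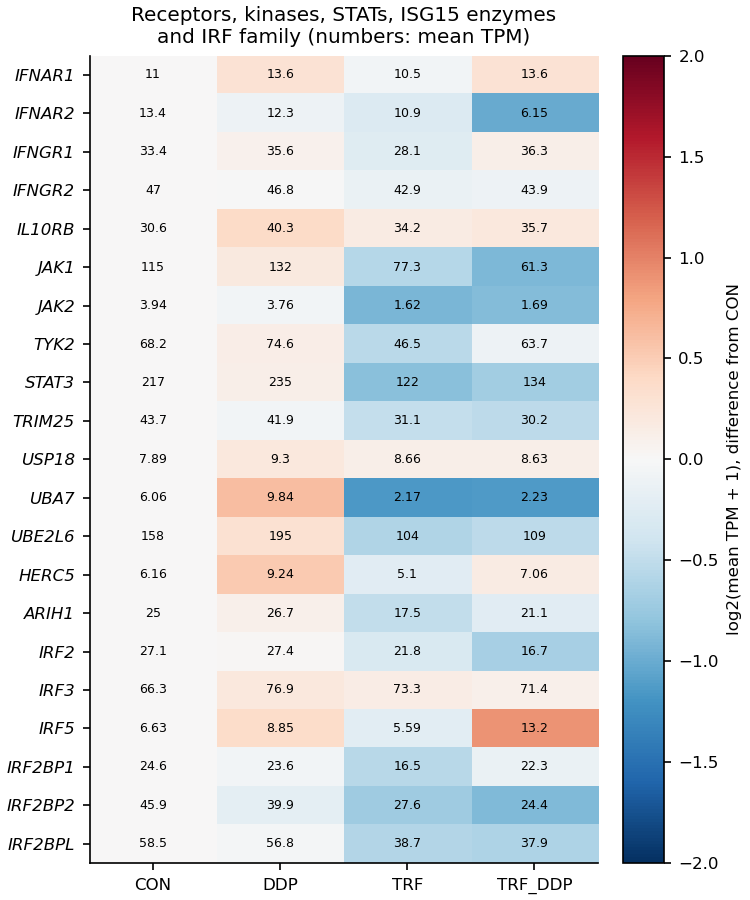
Mean TPM (numbers, n = 3) of tested receptors, kinases, STATs, ISG15 conjugation enzymes and IRF family genes outside the 9, for CON, DDP, TRF and TRF_DDP. Colour is the difference of log2(mean TPM + 1) from CON, where blue is lower, and STAT3, JAK2 and UBA7 are blue in both TRF-medium columns.

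Of the genes for attaching ISG15 to proteins and removing it, 6 were tested. UBA7, the activating enzyme, averaged 6.06 ± 0.607 TPM in CON, 9.84 ± 0.522 for DDP, 2.17 ± 0.131 for TRF and 2.23 ± 0.329 for TRF_DDP. It rose by 0.62 with DDP in normal medium (limma adjusted p = 0.00221), which was under the fold after quantile normalization, after TMM-style scaling and without CON replicate 2 (0.55 in each), and fell by 1.15 in TRF against CON and by 1.75 in TRF_DDP against DDP. UBE2L6, the conjugating enzyme, fell by 0.60 in TRF against CON (adjusted p = 2.49e-07; -0.43 after TMM-style scaling and -0.56 without TRF replicate 2, with no call) and by 0.83 in TRF_DDP against DDP (adjusted p = 8.99e-09). The other 4, the removing enzyme USP18 among them (7.89 to 9.30 TPM on average), passed in no comparison of 2 groups.

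Other interferon-stimulated effector genes were mixed. Of 56 listed, 41 were tested. In DDP against CON 5 were higher and 0 lower, with 1.86% and 0.159% of all genes: IFIT2 (0.60), OAS1 (0.81), IFI44 (0.81), TRIM22 (0.97) and GBP3 (0.80), by log2 change. Their levels were low, OAS1 going from 0.763 ± 0.205 to 2.09 ± 0.196 TPM and TRIM22 from 2.03 ± 0.639 to 4.86 ± 0.765, and without DDP replicate 2 the count was 2, with OAS1, IFIT2 and IFI44 lost. In TRF_DDP against TRF 4 were higher (PARP10 0.79, TRIM22 0.97, PML 0.76 and HELZ2 0.68) and 1 lower (GBP1 -0.59), where 10.2% and 6.1% of all genes were. HELZ2 was lost after both other scalings, and GBP1 was lost without TRF replicate 2 or TRF_DDP replicate 3. The median change of the 41 was 0.18 in the first (0.06 over all genes) and -0.05 in the second (0.06).

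With TRF medium, 4 effectors were higher and 5 lower than for CON, and 3 were higher and 10 lower in TRF_DDP than in DDP. These are 9.76% and 12.2% of the 41 beside 8.41% and 17.1% of all genes, and 7.32% and 24.4% beside 11.8% and 21.4%, so the shares were near those of all genes. RNF213, a large E3 ligase with antimicrobial activity, fell from 92.4 ± 5.62 to 33.1 ± 1.36 TPM without DDP (by 1.45, limma adjusted p = 4.42e-09) and from 91.6 ± 3.34 to 31.0 ± 2.86 with it (by 1.54, adjusted p = 1.47e-09). GBP2, a guanylate-binding protein that interferon gamma induces, fell by 1.10 and by 2.01. GBP3 of the same family rose, from 3.95 ± 0.592 TPM in CON to 10.4 ± 2.02 in TRF (by 1.19) and by 0.76 in TRF_DDP against DDP. PLSCR1, a scramblase that limits virus entry, fell by 0.66 and 1.09, and LGALS3BP, a secreted glycoprotein at 425 ± 15.1 TPM in CON, by 0.75 and 1.00, the first of each pair being under the fold after TMM-style scaling (-0.49 and -0.57). IFIT1, which binds viral RNA, fell by 1.37 in TRF_DDP against DDP (5.50 ± 0.87 to 1.51 ± 0.242 TPM, adjusted p = 1.88e-06), and GBP1 by 1.05. TRIM22 fell by 0.72 and 0.71, calls that were lost after quantile normalization (-0.48 and -0.47), the first also without CON replicate 1 (-0.58) or TRF replicate 3 (-0.54). The split of the 41 turned with the scaling. It was 6 higher and 4 lower in TRF against CON after quantile normalization and 7 and 3 after TMM-style scaling, and 6 and 7 and then 7 and 9 in TRF_DDP against DDP.

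The interaction called 15 of the 41 effectors, 2 higher and 13 lower, where 13.5% of all genes were higher and 16.3% lower. Lower means that the change with DDP was smaller, or more negative, in TRF medium than in normal medium, as for IFI6. GBP1 had the largest (-1.12, limma adjusted p = 0.00191), and OAS1 (-0.85), IFI44 (-0.86), IFIT1 (-0.86), GBP2 (-0.90), MX1 (-0.60), HERC6 (-0.52) and PLSCR1 (-0.43) were among the rest. PML (0.52) and HELZ2 (0.74) were higher. The median interaction was -0.18 over the 41 and 0.00 over all genes, and the counts were 2 and 15 after both other scalings and 2 and 9 to 15 with 1 library left out.

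**Figure D4:**
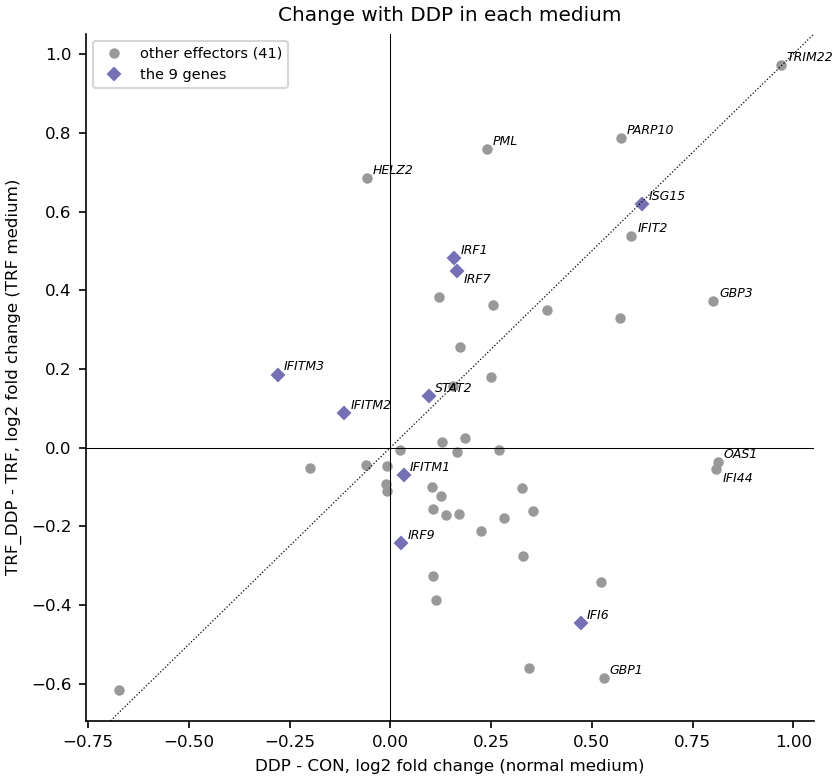
Log2 change with DDP in normal medium (horizontal axis, DDP against CON) and in TRF medium (vertical axis, TRF_DDP against TRF) for the 9 genes (diamonds) and the 41 other effectors tested (circles), with the dotted line at equal change. ISG15 and TRIM22 lie near the line and IFI6, OAS1, IFI44 and GBP1 well under it, and effectors are named where called in either comparison.

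Of the sensors and adaptors that lead to interferon production, 14 were tested. With DDP 2 were higher and 0 lower in normal medium (1.86% and 0.159% of all genes), and 3 were higher and 1 lower (IKBKE, -0.64) in TRF medium (10.2% and 6.1%). TLR3, the endosomal sensor of double-stranded RNA, rose by 1.22 in DDP against CON (0.903 ± 0.186 to 3.43 ± 0.569 TPM, limma adjusted p = 1.80e-04) and by 0.90 in TRF_DDP against TRF. The other called in DDP against CON was DHX58 (0.59), a call that was lost with each of the 6 libraries of that comparison left out in turn. TICAM1, the adaptor of TLR3, rose by 1.05 in TRF_DDP against TRF (9.98 ± 0.725 to 21.8 ± 1.01 TPM, adjusted p = 7.09e-07), with an interaction of 0.68 (adjusted p = 9.97e-04). CGAS, the cytosolic DNA sensor, rose by 0.69 in the same comparison (10.8 ± 0.169 to 18.1 ± 0.327 TPM, adjusted p = 1.91e-05). In TRF_DDP against DDP 3 were higher (TICAM1 1.01, CGAS 0.96 and MYD88 0.64) and 3 lower (MAVS, SAMHD1 and IKBKE), where 11.8% and 21.4% of all genes were, and after both other scalings 4 were higher and 1 lower. MAVS, the adaptor of RNA helicase sensors, fell by 0.65 there, a call lost after both other scalings (-0.53 and -0.51), and SAMHD1, a nucleotide hydrolase that limits viruses, fell by 1.05 in TRF against CON and 1.10 in TRF_DDP against DDP.

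Of the class I antigen presentation genes, which interferons also induce, 18 were tested. TAP1, a subunit of the peptide transporter, averaged 39.3 ± 2.10 TPM in CON, 60.4 ± 2.19 for DDP, 49.9 ± 1.55 for TRF and 109.7 ± 7.56 for TRF_DDP. It rose by 0.61 in DDP against CON (limma adjusted p = 4.86e-05; 0.55 and 0.53, under the fold, after the other scalings, 0.57 without CON replicate 2 and 0.58 without DDP replicate 1) and by 1.12 in TRF_DDP against TRF (adjusted p = 2.67e-08), and the interaction was 0.51 (adjusted p = 6.38e-04). PSMB9, a subunit of the immunoproteasome, fell by 0.75 in TRF against CON (-0.58 and no call after TMM-style scaling) and by 1.34 in TRF_DDP against DDP. TAPBP fell by 0.95 and NLRC5, the transactivator of class I genes, by 0.99 in TRF_DDP against DDP, and TAP2 rose by 0.87 with a wide spread (26.4 ± 8.15 to 47.7 ± 6.06 TPM, adjusted p = 0.0194) and lost its call without DDP replicate 1 (0.83) or 2 (0.68) or TRF_DDP replicate 1 (0.81) or 2 (0.82). In all, 3 were lower and 1 higher in TRF against CON (17.1% and 8.41% of all genes), and 5 lower and 2 higher in TRF_DDP against DDP (21.4% and 11.8%). The first split turned with the scaling. After TMM-style scaling 0 were lower and 2 higher in TRF against CON, and 4 lower and 2 higher in TRF_DDP against DDP. After quantile normalization the splits were 3 lower and 1 higher, and 4 lower and 2 higher.

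Inhibitors of the pathway were tested in 13 cases. CISH, a SOCS family gene and STAT5 target, had the largest change, from 13.1 ± 0.963 TPM in CON to 1.63 ± 0.0945 in TRF (a fall by 2.42, limma adjusted p = 1.20e-09) and from 9.78 ± 0.124 to 2.50 ± 0.399 with DDP present (a fall by 1.63). PTPN6, the phosphatase SHP-1, fell by 1.83 and 1.96. SOCS3 fell by 0.68 in TRF against CON (-0.51 and no call after TMM-style scaling). SOCS1, which blocks the Janus kinases, rose by 1.11 in TRF_DDP against TRF (1.32 ± 0.496 to 3.97 ± 0.645 TPM, adjusted p = 1.17e-04) and by 0.99 against DDP, with an interaction of 1.10 (adjusted p = 0.00319). SOCS2 rose by 0.65 in TRF_DDP against CON. In TRF against CON 1 of the 13 was higher (PTPN1, 0.63) and 3 lower, where 8.41% and 17.1% of all genes were. In DDP against CON 0 of the 13 were called. By limma 3 had an adjusted p under 0.05 (PTPN1 0.42, SOCS3 -0.27 and CISH -0.38), all with folds under 1.5, and 8 had an unadjusted p under 0.05, 5 of them higher and 3 lower. Over all 13854 genes tested, 1690 had an adjusted p under 0.05 there, and the share with an unadjusted p under 0.05 is not given here.

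**Figure D5:**
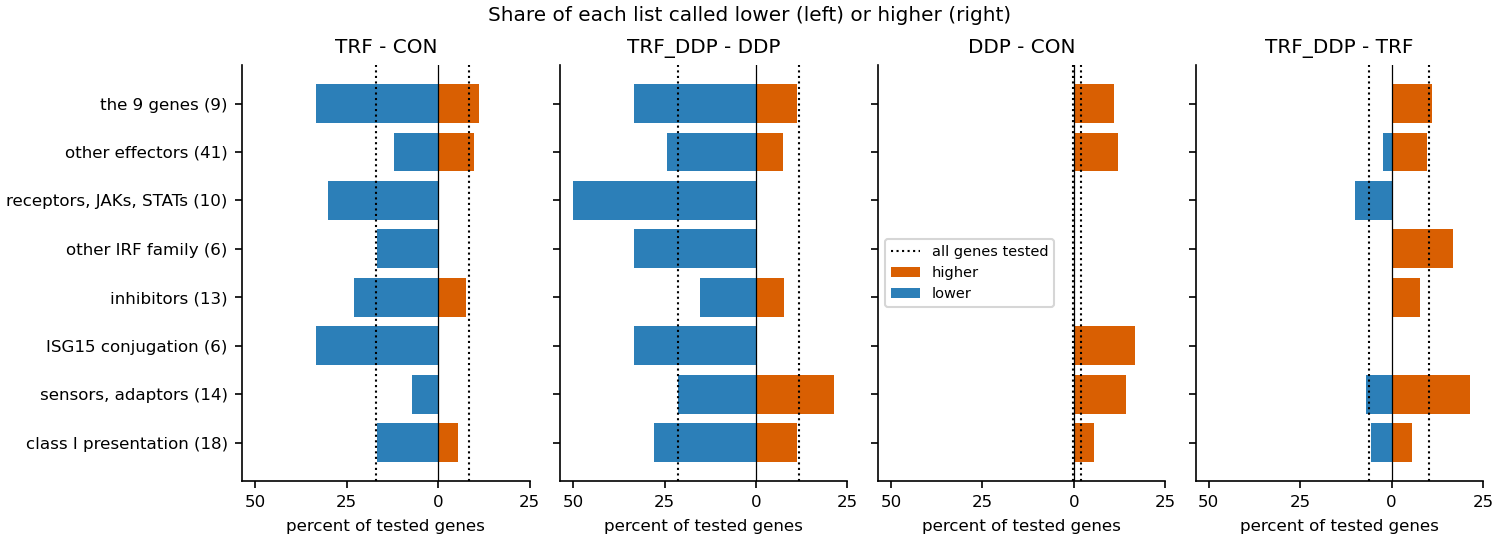
Percent of the tested genes of each list (number tested in brackets) that were called lower (bars to the left) or higher (bars to the right) in 4 comparisons, with dotted lines at the percent of all 13854 genes tested. Receptors, kinases and STATs have bars to the left alone in both TRF-medium comparisons, and all bars of DDP against CON point to the right.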

How the data were processed

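RNA of 12 libraries was measured by sequencing after oligo(dT) selection. The authors used SeqPrep and sickle for trimming, HISAT2 for alignment and StringTie for assembly, and deposited TPM per gene and library. The submitters' notes also name edgeR, and the study's own calls came from DESeq2 (fold 1.5, adjusted p 0.05). The sources used here name no versions, genome build or use of strand, and depth is unknown. The methods name A549 tumor cells as the source of RNA, while the labels name A549/DDP.

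Libraries were matched to groups by their titles, and 4 empty columns and the authors' group means were not used. Values entered as log2(TPM + 1), unscaled. The filter on low values, a 12-library mean of 1 TPM, left 13854 genes (with 174 of 238 loci that the assembly added), tested in 1 limma fit of the 4 groups (moderated test, trend, robust), with Benjamini-Hochberg adjustment over all genes in each of 6 comparisons. Calls needed an adjusted p below 0.05 plus a fold above 1.5, and in the interaction (the change with DDP in TRF medium less that in normal medium) the adjusted p alone. The fit was tested on simulated data. The replicate numbers are not stated to pair libraries, so the fit has no block.

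The 9 genes and all gene lists were chosen with earlier results of these data known. All 192 other list genes were matched. Beside the 9 genes, the text names by rule the genes called in a comparison of 2 groups, up to 5 a list (8 for the effectors) with the largest change and 1 TPM or more in a group's mean, any interferon gene of at least 0.1 TPM, JAK1, TYK2, IFNAR1, IFNAR2 and USP18, and the 5 genes most like the leading member. Other names in counts of at most 5, and those given for the interaction, IFITM10 and DHX58, were chosen after their values were seen. Of the genes this rule takes, 1 is not reported here, and the list counts include it. Coordinates and transcripts are from GENCODE v29 (GRCh38), and promoters from a RefSeq table (GRCh38.p14). Open reading frames were aligned with Biopython 1.88. Tools were R 4.3.3, limma 3.58.1, Python 3.11.15, numpy 2.4.6, pandas 2.3.3 and matplotlib 3.10.9.

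Alternatives tried were TMM-style scaling, quantile normalization, the filter dropped, the filter raised to 1 TPM per library, a pseudocount of 0.1, limma without trend and robust estimation, a replicate block, only the groups compared, no fold threshold, and each library left out in turn.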

Additional observations from a re-analysis of the deposited data

Results flagged for a closer look

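The change with DDP differed between the media, by the test of the interaction in limma, for 3 of the 9 genes, where 29.8% of all genes tested did. For IFI6 the interaction was -0.918 (SE 0.158, adjusted p = 0.00104; adjusted p 4.05e-04 to 0.0059 over 20 alternatives). The DDP libraries (36.5 to 40.9 TPM) lay above all CON libraries (24.1 to 30.9 TPM), and the TRF_DDP libraries (23.7 to 28.1 TPM) lay under all TRF libraries (30.6 to 41.02 TPM). For IRF9 it was -0.27 (adjusted p = 0.0196, 0.00753 to 0.0504 over the alternatives), with all TRF_DDP libraries under all TRF libraries and with CON and DDP overlapping. For IRF7 it was 0.284 (adjusted p = 0.0497, 0.0247 to 0.129 over the alternatives), with DDP libraries above CON and TRF_DDP libraries above TRF.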

How the results depend on the processing

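Precision rests on 3 libraries a group, TPM gives no depth, and TPM of 1 gene depends on all others of its library. The falls of IFITM1, IFITM2 and IFITM3 and the rise of IRF7 under TRF medium were called in all 21 alternatives of TRF against CON, TRF_DDP against DDP and TRF_DDP against CON, as was ISG15 in the last. ISG15 was called in 17 of 21 alternatives in DDP against CON and in TRF_DDP against TRF. Some of the 21 could not lose a call by its fold. Dropping the fold threshold loses no call, and leaving out a library of a group not compared keeps the log2 change. Where no cause is given, the cause was not tested.

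Without the fold threshold, which admits smaller changes by construction, the calls were 1690 genes and 2 of the 9 in DDP against CON, 8412 and 8 in TRF against CON, 9056 and 7 in TRF_DDP against DDP, 6639 and 5 in TRF_DDP against TRF, and 9314 in TRF_DDP against CON. The main counts were 279, 3540, 4599, 2258 and 4866. After quantile normalization and after TMM-style scaling 0 of the 9 were called in DDP against CON and 0 in TRF_DDP against TRF, where ISG15 kept a limma adjusted p of at most 0.0129 with a fold under 1.5 and where 3 and 5 of the 9 had an unadjusted p under 0.05 in the unscaled fit. The share of all genes with such an unadjusted p is not given here. The interaction called 1 of the 9 without a filter on low values. Higher and lower calls were split 1165 to 2375 in TRF against CON, and 1625 to 1635 and 1901 to 1628 after quantile normalization and TMM-style scaling. In the same order the split was 1631 to 2968, 2179 to 2273 and 2218 to 2299 in TRF_DDP against DDP, 1413 to 845, 1049 to 1066 and 1077 to 1144 in TRF_DDP against TRF, and 257 to 22, 169 to 46 and 167 to 30 in DDP against CON.

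With 1 library left out, calls among the 9 ranged from 0 to 1 in DDP against CON (0 without CON replicate 1 or DDP replicate 1), 4 to 4 in TRF against CON, 4 to 5 in TRF_DDP against DDP, 0 to 1 in TRF_DDP against TRF (0 without TRF replicate 2), 5 to 5 in TRF_DDP against CON and 1 to 3 in the interaction (1 without TRF_DDP replicate 2). Over all genes they ranged from 251 to 291, 3459 to 3775, 4535 to 4630, 2159 to 2459, 4832 to 4926 and 3459 to 4424 in that order. Signs turned only for differences among the 9 that no setting called. In DDP against CON these were IFITM1 (-0.028 after quantile normalization, -0.041 after TMM-style scaling, -0.14 to 0.20 with a library left out) and IRF9 (-0.037, -0.047, and -0.0073 to 0.056). In TRF_DDP against DDP it was IRF1 (-0.00073 after quantile normalization, -0.12 to 0.16 with a library left out). In TRF_DDP against TRF they were IFITM2 (-0.020 after TMM-style scaling), IFITM1 (-0.19 to 0.068) and IFITM3 (-0.012 to 0.34), and in the interaction IFITM1 (-0.27 to 0.070), STAT2 (-0.027 to 0.093) and ISG15 (-0.11 to 0.077), all with a library left out.

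Same-numbered libraries did not deviate together (r of -0.08 to 0.08 over 18 pairs, none over 0.1, against -0.08 to 0.13 for other pairs), so the numbers are not taken to pair them. With the replicate block 274 genes were called in DDP against CON, and no count of calls moved by over 1.5 times. The block added IFITM2 (adjusted p = 0.0349) to the interaction calls among the 9.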
